A study of Homo sapiens with 8 samples.

Results

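The Wnt feedback target genes are 10 direct targets of Wnt/β-catenin signalling, most of which restrain the pathway that switches them on. They are AXIN2, NKD1, RNF43, ZNRF3, NOTUM, DKK1, SP5, LEF1, TCF7 and APCDD1, and they were taken by name. All 10 were found among the 17309 genes of the count table, and all 10 were among the 13619 genes tested. DKK1 passed the filter on low counts through its SW480 libraries alone, since it had 0 counts in every DLD-1 library.

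The data are RNA-seq read counts from SW480 and DLD-1, established lines of human colorectal cancer (CRC) cells whose genotype is labelled WT. Each line was infected with shControl virus or with shNAT10 virus, a short hairpin RNA against NAT10, the enzyme that writes N4-acetylcytidine on RNA. The 4 groups (SW480 shControl, SW480 shNAT10, DLD-1 shControl and DLD-1 shNAT10) hold 2 libraries each, labelled as biological replicates, from cells grown in DMEM with serum. Which NAT10 hairpin was sequenced is not given in the sources used here, and each line is 1 line, so a difference between them is a difference between these lines and not between kinds of tumour.

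In resting epithelium, a destruction complex built on AXIN and APC marks β-catenin for degradation. When Wnt ligands engage Frizzled and LRP receptors, or when APC is truncated as in both of these lines, β-catenin accumulates, enters the nucleus and works with TCF/LEF factors to switch on its targets. Feedback genes act at each step of that route, on the ligand, the receptor, the destruction complex and the nuclear factors, and in the intestine the level of AXIN2 is widely used as a readout of pathway activity.

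Library totals ran from 15147805 to 17271336 counts. NAT10 itself fell under shNAT10, by 2.25 on the log2 scale in SW480 and by 1.09 in DLD-1 (standard error (SE) 0.0869 and 0.0812, adjusted p = 3.7e-09 and 2.7e-05, edgeR's quasi-likelihood test). The 7 epithelial markers with values summed to between 3167 and 3926 CPM (counts scaled to a common library total) in SW480 and to between 7480 and 8073 CPM in DLD-1. Of the leukocyte, fibroblast and endothelial markers, 2 of 3, 4 of 5 and 3 of 4 stayed under 1 CPM in every library. CD68 was the exception among leukocyte markers, at 17.3 to 30.7 CPM.

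TCF/LEF factors bind a short DNA motif, which is shown here where it occurs close to a member's start site. A promoter of 300 bases (250 before the start site and 50 after it, RefSeq, GRCh38.p14) was at hand for 6 of the 10 genes, and it was searched on both strands for CTTTGAA and CTTTGAT, whose reverse complements are TTCAAAG and ATCAAAG. Other forms of the motif, such as the CTTTGTT in the DKK1 stretch below, were not searched and stay in small letters. The matches and shares given here hold for the searched forms only. SP5 and DKK1 held a match, and LEF1, TCF7, RNF43 and APCDD1 held none. For LEF1 (chr4:108166252-108166551) and TCF7 (chr5:134115363-134115662 and chr5:134123368-134123667), the promoters at hand lay inside the span of the gene. The bases around the outer start of these genes were not searched. The SP5 stretch is chr2:170715169-170715279 on the plus strand, from 168 to 58 bases upstream of the start site, with 3 matches. The DKK1 stretch is chr10:52314166-52314212 on the plus strand, from 115 to 69 bases upstream, with 1 match. Capitals mark the matches.
SP5: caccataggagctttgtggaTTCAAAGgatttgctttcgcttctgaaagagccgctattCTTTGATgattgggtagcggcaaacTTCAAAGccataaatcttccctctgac
DKK1: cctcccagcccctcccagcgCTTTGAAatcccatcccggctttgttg
Of all 35116 promoters of this length, 6.86% held at least 1 match and 0.0256% held 3 or more. A match is a description of the letters and not evidence of binding in these cells.

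The first question was how strongly each gene was expressed. Levels of different genes were compared only on a scale that allows for length, as FPKM (reads scaled to transcript length and library total) summed over each gene's transcripts. In SW480 shControl cells, APCDD1 (41.1 and 46.1 FPKM) and AXIN2 (41.1 and 45.3 FPKM) led the list, and their libraries overlapped. TCF7 (24.6 and 25.9 FPKM) and RNF43 (21 and 21.6 FPKM) followed. The other 6 ran from SP5 at 12.4 and 13 FPKM through LEF1, DKK1, NKD1 and NOTUM to ZNRF3 at 6.07 and 6.7 FPKM. Apart from APCDD1 and AXIN2, no neighbours in this order overlapped in their libraries.

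In DLD-1 shControl cells the order was different. AXIN2 led alone, at 52.2 and 55.1 FPKM, and RNF43 was second, at 42.4 and 42.7 FPKM. LEF1 (16.9 and 17.2 FPKM), TCF7 (12.1 and 12.8 FPKM), ZNRF3 (6.67 and 6.85 FPKM) and SP5 (3.32 and 3.42 FPKM) came next. APCDD1, which shared the top of the list in SW480, was at 1.32 and 1.46 FPKM, NKD1 was at 1.08 and 1.23 FPKM, NOTUM was at 0.33 and 0.48 FPKM, and DKK1 was listed at 0. None of these neighbours overlapped in their libraries. The shNAT10 libraries kept the DLD-1 order. For SW480 shNAT10, FPKM of AXIN2, TCF7, RNF43, LEF1, NKD1 and ZNRF3 could be taken from 1 library only, because the values of replicate 2 stop part of the way.

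**Figure D1:**
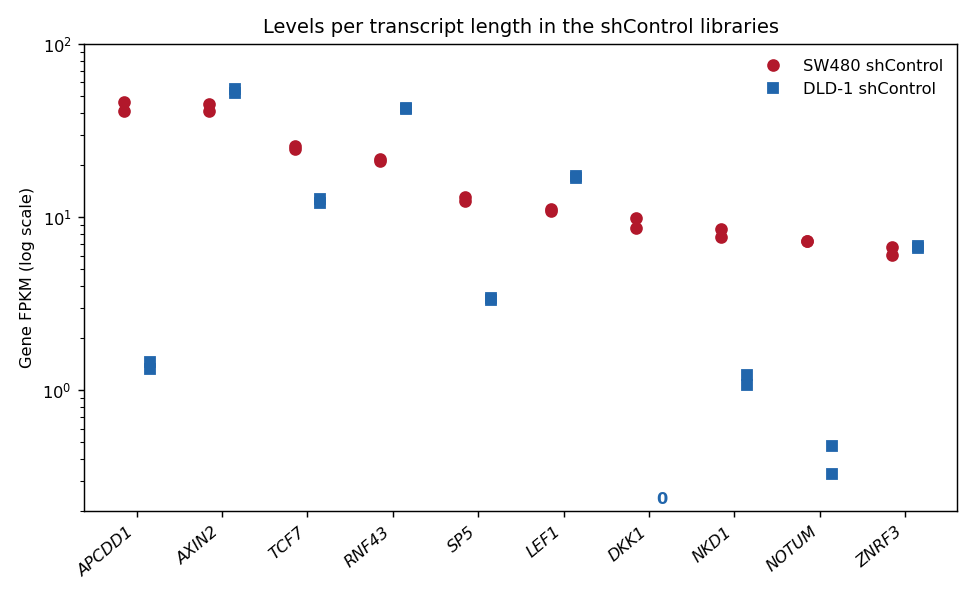
Gene FPKM on a log axis for the 10 genes in SW480 shControl (circles) and DLD-1 shControl (squares), 1 point per library and 2 libraries per group, in order of the SW480 level. All 10 SW480 genes lie between 6.07 and 46.1 FPKM, while the DLD-1 genes spread from 55.1 FPKM for AXIN2 down to NOTUM at 0.33 FPKM and DKK1, marked 0.

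The lines were then compared gene by gene, on CPM after normalization by the trimmed mean of M values (TMM). Log2 fold changes below are SW480 against DLD-1, and the comparison was made once in the 4 shControl libraries and once in the 4 shNAT10 libraries, which share no library although they enter a single model. At an adjusted p under 0.05 (edgeR), 6 members were higher in SW480 in both comparisons, namely NKD1, NOTUM, DKK1, SP5, TCF7 and APCDD1. AXIN2, RNF43 and LEF1 were lower in SW480 in both. ZNRF3 was not called in the shControl libraries and was called lower in the shNAT10 libraries.

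The background of these calls is high, since the lines differ in most genes. Of the tested genes, 38.1% were called higher and 35.6% lower in SW480 in the shControl libraries, and 38.2% and 36.3% in the shNAT10 libraries. A stricter rule that also asks for a 2-fold difference, chosen after the values were seen, called 29.2% of the tested genes in the shControl libraries and 29.7% in the shNAT10 libraries. It kept 7 of the 10 members in each, with RNF43 and TCF7 lying on the 2-fold limit. The median log2 fold change of the 10 members was 1.47 and 1.49, against 0.01 over all tested genes in both comparisons. Setting DKK1 to its bound could not change these medians, because the bound still lies above the middle of the list. DKK1, counted among the members called higher, passed the filter on low counts through SW480 alone. Without DKK1 the middle member is TCF7, on the 2-fold limit, so the medians of the members rest partly on DKK1. Without regard to sign, the median size was 1.47 and 1.49 for the members, against 0.54 and 0.56 over all tested genes. The sizes for the members rest partly on DKK1 in the same way.

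**Figure D2:**
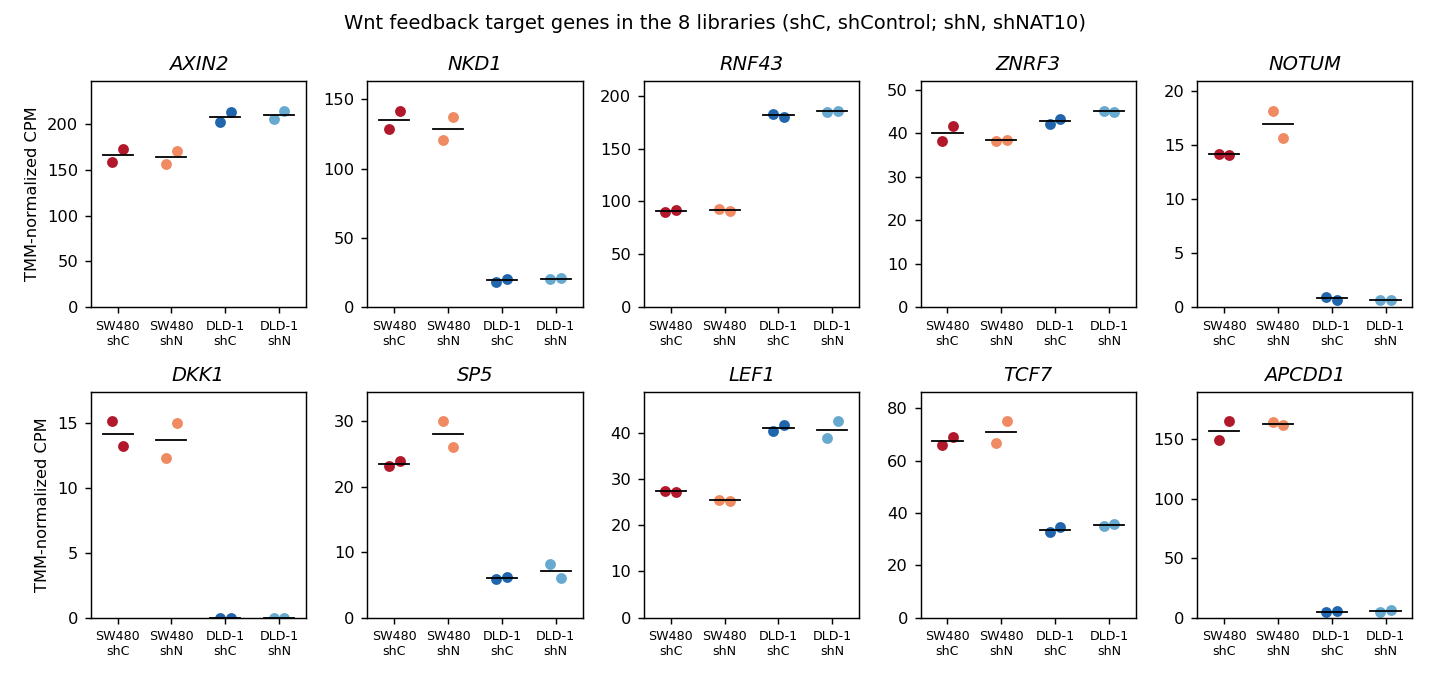
TMM-normalized CPM of each gene in the 8 libraries, on linear axes that start at 0 and differ between panels. Points are libraries (2 per group) and bars are group means. NKD1, NOTUM, DKK1, SP5, TCF7 and APCDD1 stand higher in SW480, AXIN2, RNF43, ZNRF3 and LEF1 stand higher in DLD-1, and the 2 hairpins of a line stand close together.

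Of the genes that act outside the cell or at its surface, 3 showed the widest gaps. APCDD1 (chr18:10454635-10489949, GRCh38.p14) encodes a membrane glycoprotein that binds Wnt and its co-receptor. It was at 149 and 165 CPM in SW480 shControl, 164 and 162 CPM in SW480 shNAT10, 4.87 and 5.33 CPM in DLD-1 shControl and 4.95 and 6.63 CPM in DLD-1 shNAT10. Every SW480 library lay far above every DLD-1 library. The difference was 30.7-fold in the shControl libraries (log2 4.94, SE 0.115, adjusted p = 4.3e-14, edgeR) and 28.3-fold in the shNAT10 libraries (log2 4.82, SE 0.114, adjusted p = 4.9e-14).

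NOTUM (chr17:81952507-81961187) encodes a secreted enzyme that strips the lipid from Wnt ligands. It was at 14.2 and 14.1 CPM in SW480 shControl, 18.2 and 15.7 CPM in SW480 shNAT10, 0.94 and 0.651 CPM in DLD-1 shControl and 0.648 and 0.656 CPM in DLD-1 shNAT10. The DLD-1 values rest on 10 to 16 counts per library, against 241 to 310 in SW480, and the lines did not overlap. The difference was 17.7-fold in the shControl libraries (log2 4.14, SE 0.198, adjusted p = 1.0e-10, edgeR) and 25.7-fold in the shNAT10 libraries (log2 4.68, SE 0.203, adjusted p = 3.4e-11).

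DKK1 (chr10:52314281-52317657), whose promoter stretch is printed above, encodes a secreted protein that blocks the LRP co-receptors. It was at 15.1 and 13.2 CPM in SW480 shControl and at 12.3 and 15 CPM in SW480 shNAT10, on 210 to 257 counts. All 4 DLD-1 libraries had 0 counts, which allows up to 3 counts per library or 0.177 CPM in shControl and 0.187 CPM in shNAT10. Against that limit, which covers counting error only, DKK1 was at least 79.8-fold higher in SW480 shControl and at least 73.3-fold higher in SW480 shNAT10.

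RNF43 and ZNRF3 are related membrane ubiquitin ligases that clear Frizzled receptors from the cell surface. RNF43 (chr17:58352500-58417534) was at 89.9 and 91.7 CPM in SW480 shControl, 92.7 and 90.8 CPM in SW480 shNAT10, 183 and 180.3 CPM in DLD-1 shControl and 185 and 186 CPM in DLD-1 shNAT10. Its libraries were close within each line and did not overlap between lines. It was lower in SW480 by a factor of 2 in the shControl libraries (log2 −1.0, SE 0.0623, adjusted p = 2.1e-09, edgeR) and 2.02 in the shNAT10 libraries (log2 −1.02, SE 0.0623, adjusted p = 1.8e-09).

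ZNRF3 (chr22:28883572-29057488) was at 38.3 and 41.7 CPM in SW480 shControl, 38.2 and 38.5 CPM in SW480 shNAT10, 42.2 and 43.2 CPM in DLD-1 shControl and 45.2 and 44.8 CPM in DLD-1 shNAT10. The lines lay close together under both hairpins. The log2 fold change was −0.09 in the shControl libraries, with a 95% interval from −0.26 to 0.07 and an adjusted p of 0.27 (edgeR). It was −0.23 in the shNAT10 libraries, from −0.39 to −0.07 with an adjusted p of 0.013, which rose to 0.055 without DLD-1 shNAT10 replicate 1 and was 0.069 in DESeq2. The 2 differences were not themselves shown to differ (adjusted p = 0.68, edgeR).

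Inside the cell, AXIN2 and NKD1 act on the destruction complex and on Dishevelled. AXIN2 (chr17:65528563-65561648), the scaffold of the destruction complex that β-catenin induces, was at 159 and 173 CPM in SW480 shControl and 157 and 171 CPM in SW480 shNAT10. It was at 202 and 213 CPM in DLD-1 shControl and 206 and 215 CPM in DLD-1 shNAT10, so every DLD-1 library lay above every SW480 library by a modest step. AXIN2 was 1.25-fold lower in SW480 in the shControl libraries (log2 −0.32, SE 0.0696, adjusted p = 7.5e-04, edgeR) and 1.28-fold lower in the shNAT10 libraries (log2 −0.36, SE 0.0697, adjusted p = 3.0e-04).

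NKD1 (chr16:50548396-50649249), which binds Dishevelled and dampens its signal, went the other way. It was at 129 and 142 CPM in SW480 shControl, 121 and 137 CPM in SW480 shNAT10, 18.3 and 20.6 CPM in DLD-1 shControl and 19.9 and 20.9 CPM in DLD-1 shNAT10. The lines were well apart. NKD1 was 6.98-fold higher in SW480 in the shControl libraries (log2 2.80, SE 0.0951, adjusted p = 2.2e-12, edgeR) and 6.32-fold higher in the shNAT10 libraries (log2 2.66, SE 0.0951, adjusted p = 3.7e-12).

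In the nucleus, LEF1 and TCF7 belong to the family of factors that carry β-catenin to DNA, and they differed between the lines in opposite directions. LEF1 (chr4:108047548-108168932) was at 27.5 and 27.1 CPM in SW480 shControl, 25.5 and 25.3 CPM in SW480 shNAT10, 40.4 and 41.7 CPM in DLD-1 shControl and 38.9 and 42.5 CPM in DLD-1 shNAT10. It was lower in SW480 by 1.5-fold in the shControl libraries (log2 −0.59, SE 0.0797, adjusted p = 1.1e-05, edgeR) and 1.6-fold in the shNAT10 libraries (log2 −0.68, SE 0.0807, adjusted p = 2.7e-06).

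TCF7 (chr5:134108218-134148210) was at 66 and 69.1 CPM in SW480 shControl, 66.9 and 75.1 CPM in SW480 shNAT10, 32.6 and 34.8 CPM in DLD-1 shControl and 34.9 and 35.8 CPM in DLD-1 shNAT10. All SW480 libraries were above all DLD-1 libraries. It was higher in SW480 by 2-fold in the shControl libraries (log2 1.0, SE 0.0818, adjusted p = 4.4e-08, edgeR) and 2.01-fold in the shNAT10 libraries (log2 1.01, SE 0.0817, adjusted p = 4.2e-08).

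SP5 (chr2:170715337-170718078), a zinc finger repressor of the Sp family whose promoter carries the 3 matches printed above, was the third nuclear gene. It was at 23.1 and 23.9 CPM in SW480 shControl, 30 and 26.1 CPM in SW480 shNAT10, 5.93 and 6.27 CPM in DLD-1 shControl and 8.19 and 6.04 CPM in DLD-1 shNAT10. Its lines did not overlap, and its 2 shNAT10 libraries were further apart than its 2 shControl libraries in each line. SP5 was 3.85-fold higher in SW480 in the shControl libraries (log2 1.94, SE 0.138, adjusted p = 9.6e-09, edgeR) and 3.93-fold higher in the shNAT10 libraries (log2 1.97, SE 0.134, adjusted p = 5.6e-09).

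**Figure D3:**
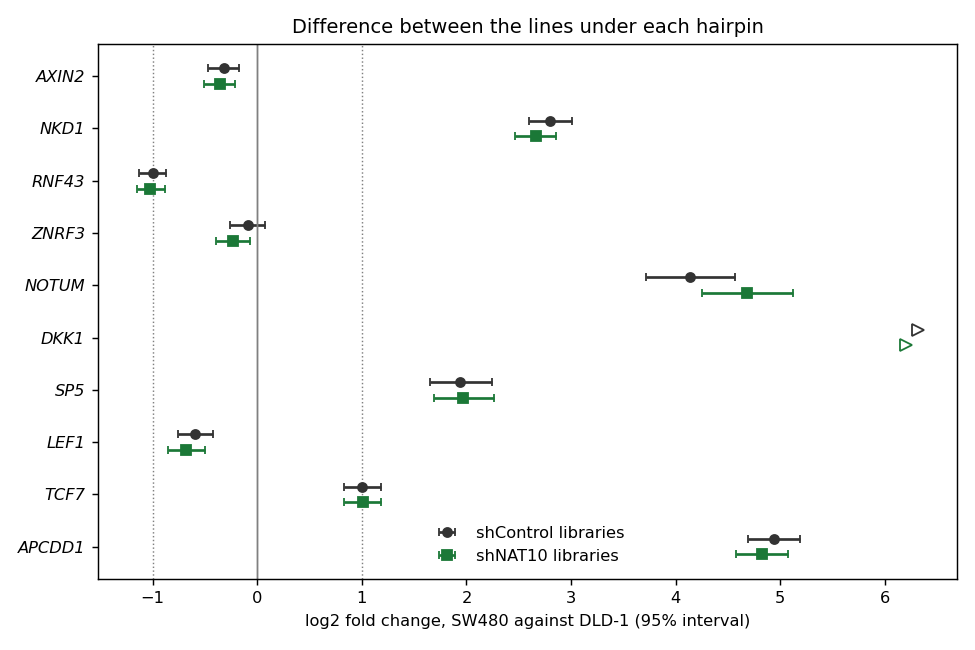
Log2 fold change of SW480 against DLD-1 for each gene, with 95% intervals, in the shControl libraries (circles) and the shNAT10 libraries (squares). Open triangles mark the lower bound of DKK1, which had 0 counts in DLD-1, and dotted lines mark 2-fold. The values run from −1.02 for RNF43 to 4.94 for APCDD1, and the intervals of the 2 comparisons overlap for each gene that has them.

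The counting leaves some values less certain than others. Use of strand is not stated in the sources used here, and in GENCODE release 29 exons of AXIN2, NKD1, RNF43, DKK1, LEF1 and TCF7 overlap exons of another gene. For NKD1, DKK1 and LEF1 that gene is a transcript on the opposite strand (AC007608.1, PRKG1-AS1 and LEF1-AS1), for TCF7 it is SKP1 on the opposite strand, for AXIN2 it is AC004805.1 on the same strand, and for RNF43 they are SUPT4H1 and AC004687.2 on the same strand and TSPOAP1-AS1 on the other. ZNRF3, NOTUM, SP5 and APCDD1 have no such overlap.

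The second question was whether NAT10 knockdown changed pathway output. NAT10 itself fell further in SW480 than in DLD-1 (difference of the effects −1.16 on the log2 scale, adjusted p = 0.0015, edgeR). Line and depth of knockdown therefore cannot be told apart where effects in the lines are compared, here and below. None of the 10 members was called in SW480 or in DLD-1, in the mean effect over both lines or in the difference of the effects between lines (adjusted p under 0.05, edgeR), and DESeq2 called 0 as well, although it gave no adjusted p to NOTUM and DKK1 in these comparisons, nor to SP5 outside the mean effect. The share of all tested genes called was 1.68% in SW480, 0.0147% in DLD-1, 1.02% for the mean effect and 0.00734% for the difference. NAT10 itself was 1 of the 2 genes called in DLD-1 and the only 1 called for the difference. At an unadjusted p under 0.05, edgeR picked 2 members in SW480 (SP5 and NOTUM), 0 in DLD-1, 1 for the mean effect (SP5) and 0 for the difference, against 19.3%, 5.96%, 14.5% and 9.38% of all tested genes. DESeq2 picked 0 members in all 4. Leaving out any 1 of the 8 libraries moved the number of genes called in SW480 from 229 to between 17 (SW480 shControl replicate 2 left out) and 2162 (SW480 shNAT10 replicate 2 left out), while the number of members called stayed at 0.

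The intervals show what size of change these libraries leave room for. In SW480, AXIN2 had a log2 fold change of −0.02 with a 95% interval from −0.17 to 0.13, and in DLD-1 one of 0.02 with an interval from −0.13 to 0.17. RNF43 was as tightly held, at 0.02 (−0.12 to 0.15) in SW480 and 0.03 (−0.10 to 0.16) in DLD-1. NKD1 stood at −0.07 (−0.25 to 0.10) and 0.07 (−0.16 to 0.30), and ZNRF3 at −0.06 (−0.22 to 0.10) and 0.08 (−0.08 to 0.24). LEF1 was at −0.10 (−0.28 to 0.07) and −0.01 (−0.18 to 0.15), TCF7 at 0.07 (−0.10 to 0.24) and 0.07 (−0.11 to 0.25), and APCDD1 at 0.06 (−0.12 to 0.23) and 0.17 (−0.17 to 0.52). For these 7 genes a change of 2-fold in either direction lay outside both intervals. The median size of the log2 fold change was 0.06 over the 10 members in SW480 and 0.07 over the 9 with counts in DLD-1, against 0.13 and 0.08 over all tested genes. The members and all tested genes were not matched for count level, so these medians do not show that members were steadier.

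SP5 and NOTUM had the largest values in SW480, and both rested partly on SW480 shNAT10 replicate 1, without which they were 0.16 and 0.15 on the log2 scale. The SP5 libraries under shNAT10 (30 and 26.1 CPM) both lay above those under shControl (23.1 and 23.9 CPM), with a log2 fold change of 0.26, an interval from 0.01 to 0.50 and an adjusted p of 0.24 (edgeR). In DLD-1 the SP5 value was 0.23 (−0.12 to 0.58, adjusted p = 0.92), where the groups overlapped, and the mean over both lines was 0.24 (0.03 to 0.46, adjusted p = 0.28). Without DLD-1 shNAT10 replicate 1 the DLD-1 value was −0.02. NOTUM was also at 0.26 in SW480 (0.01 to 0.51, adjusted p = 0.24), with no overlap between hairpins. In DLD-1 its 10 to 16 counts gave −0.29 with a wide interval from −1.10 to 0.53, and the difference between the lines was not called (adjusted p = 0.67, edgeR). DKK1 was at −0.04 (−0.34 to 0.25) in SW480, and DLD-1, with 0 counts under both hairpins, gives no fold change.

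**Figure D4:**
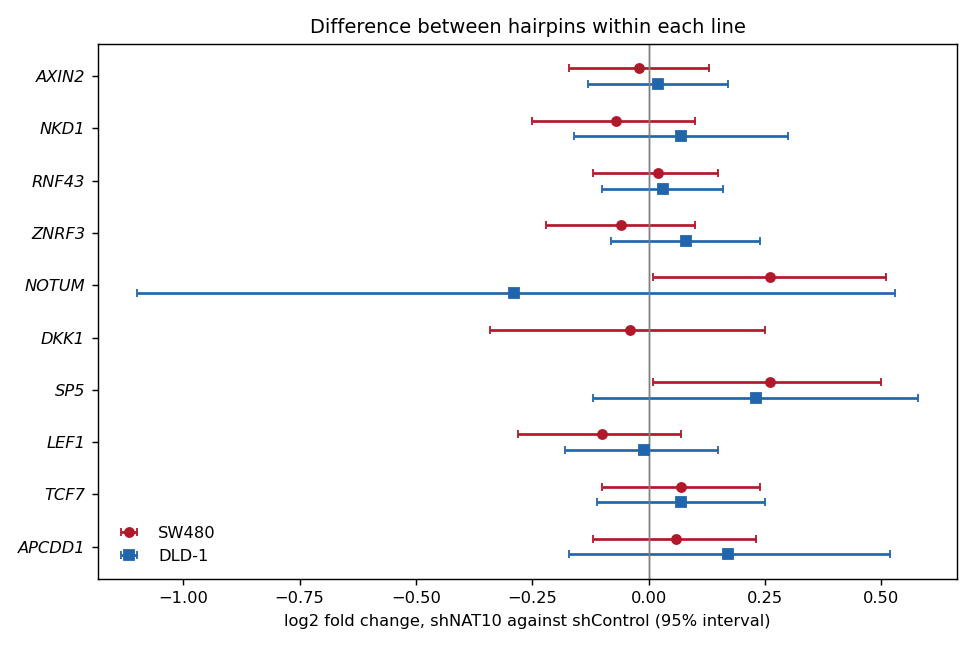
Log2 fold change of shNAT10 against shControl for each gene, with 95% intervals, in SW480 (circles) and DLD-1 (squares). DKK1 has no DLD-1 value. The points lie between −0.29 and 0.26, and the intervals of SP5 and NOTUM in SW480 are the ones that leave out 0, although neither gene passed the adjusted test.

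The other genes of the pathway were read from 6 lists by role. Their genes were compared between the lines in the shControl libraries, against the backgrounds of 38.1% higher and 35.6% lower given above. Of 12 tested Wnt ligands and R-spondins (of 23 listed), 4 were higher and 6 lower in SW480. WNT6, WNT9A and WNT11, which are 3 of the 4 higher, passed the filter on low counts through SW480 alone, and WNT2B and WNT8B through DLD-1 alone, so these counts are no support for a direction. WNT6 and WNT9A, both ligands, had 0 counts in every DLD-1 library and were at least 79-fold and at least 45.7-fold higher in SW480 shControl. In the other direction, WNT7B was lower in SW480 (log2 −3.25, adjusted p = 3.9e-08, edgeR), and WNT8B, with 0 counts in SW480, was at least 3.19-fold lower.

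Of 13 tested receptors (of 15), 5 were higher and 5 lower, with a median of 0.08. FZD9 passed the filter through SW480 alone. The Frizzled receptors FZD9 (log2 3.81) and FZD1 (log2 2.74) were higher in SW480, while FZD4 (log2 −1.42) and LGR5 (log2 −4.88), the R-spondin receptor that marks intestinal stem cells, were lower (adjusted p from 5.4e-13 to 1.1e-06, edgeR). LGR5 was at 1.35 and 1.64 CPM in SW480 shControl and at 44.6 and 43.7 CPM in DLD-1 shControl, a 29.4-fold gap in the direction opposite to that of APCDD1.

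Of the 14 genes of the cytoplasmic relay, 7 were higher and 3 lower in SW480, with a median of 0.17. CTNNB1, the gene of β-catenin, was 1.53-fold higher (log2 0.61, adjusted p = 5.0e-07, edgeR) and DVL2, a Dishevelled, was 1.83-fold higher (log2 0.87). The tankyrase gene TNKS (log2 −0.49) and AMER1 (log2 −0.56, adjusted p = 0.0046), which recruits the destruction complex to the membrane, were lower. The AMER1 call was lost without DLD-1 shControl replicate 2 (log2 −0.30, adjusted p = 0.11).

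Of 13 tested nuclear partners of TCF (of 14), 4 were higher and 9 lower, with a median of −0.66. The Groucho-family corepressor TLE4 (log2 −2.67) and CTNNBIP1 (log2 −1.32), which keeps β-catenin off TCF, were lower in SW480. TLE2 (log2 1.55), another Groucho-family gene, and TCF7L1 (log2 1.54), a TCF factor that mainly represses, were higher.

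Among 10 tested other antagonists (of 20), 6 were higher and 2 lower, with a median of 1.03. DKK4, SFRP5 and DACT3, which are 3 of the 6 higher, passed the filter through SW480 alone, so this count and median are no support for a direction. DKK4, a secreted relative of DKK1, was at 32.3 and 35.2 CPM in SW480 shControl and at 0 counts in all 4 DLD-1 libraries, which makes it at least 191-fold higher. SFRP5, a secreted Frizzled decoy, was at 0.586 and 0.878 CPM in SW480 shControl against 0 counts, at least 4.14-fold higher. Its place among the largest rises came from a fitted value over 0 counts, and 2 genes named after their values were seen exceeded its bound, DKK3 (15.4-fold, log2 3.95, adjusted p = 9.1e-12, edgeR) and DACT3 (9.05-fold, log2 3.18, adjusted p = 1.9e-06). KREMEN1 (log2 −0.82), a receptor for DKK proteins, and TPBG (log2 −0.71), a membrane antagonist, were lower in SW480.

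Of 14 tested other β-catenin targets (of 15), 4 were higher and 8 lower in SW480, with a median of −1.09. MMP7 passed the filter through DLD-1 alone. The stem cell factor ASCL2 (log2 −3.40, 10.6-fold) and the ion carrier SLC12A2 (log2 −3.14, 8.82-fold) were lower in SW480, and BAMBI (log2 2.01), a pseudoreceptor of the TGF-β family, and CD44 (log2 1.11), a hyaluronan receptor, were higher (all 4 with adjusted p between 8.2e-14 and 5.2e-09, edgeR). Whether the feedback genes and these targets differ as lists was not tested. The epithelial markers moved with the same split of the lines, 6 of 7 being lower in SW480 and 1 higher, and their part in the differences between lines was not tested.

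**Figure D5:**
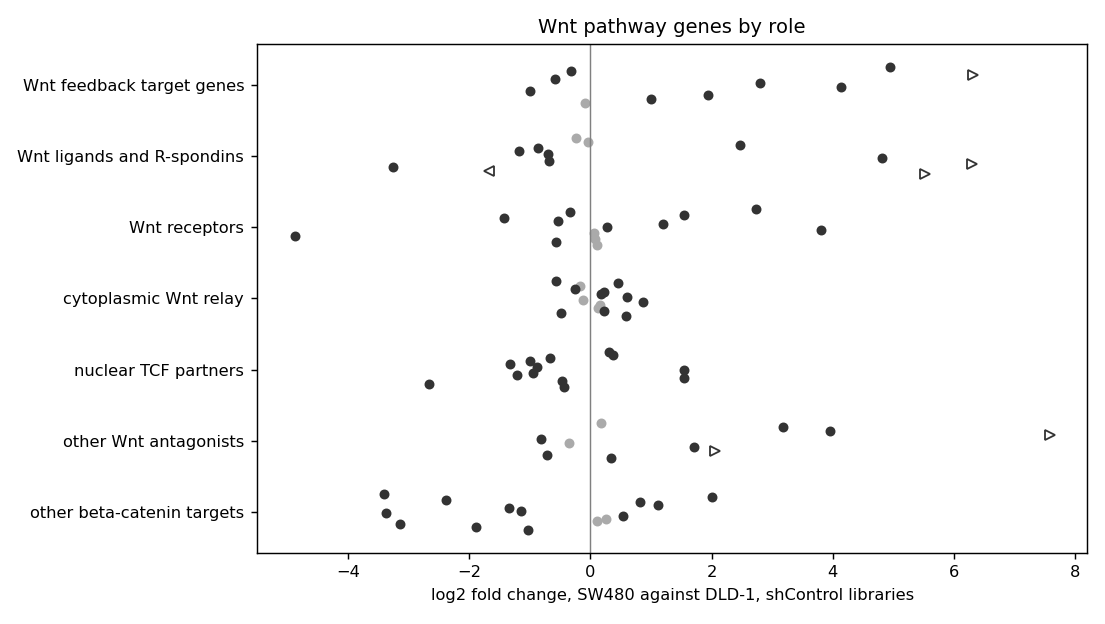
Log2 fold change of SW480 against DLD-1 in the shControl libraries for each tested gene of the 7 Wnt lists, 1 point per gene. Dark points passed an adjusted p under 0.05 and grey points did not, and open triangles are bounds for genes with 0 counts in one line. The feedback genes run from RNF43 at −1.0 to APCDD1 at 4.94 and the DKK1 bound, and the other β-catenin targets run from −3.40 for ASCL2 to 2.01 for BAMBI.

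After NAT10 knockdown, 5 of the 76 tested genes of these 6 lists were called in SW480 and 0 in DLD-1 (edgeR), beside 1.68% and 0.0147% of all tested genes. At an unadjusted p under 0.05 there were 18 in SW480 and 4 in DLD-1, beside 19.3% and 5.96%. DESeq2 called 4 and 0, and it gave WNT9A no adjusted p in SW480. For the mean effect edgeR called 2 (ASCL2 and TLE5) and DESeq2 3, the third being MYC. In edgeR, MYC was higher under shNAT10 in SW480 (log2 0.18) and in DLD-1 (log2 0.17), and its mean effect was 0.17 (adjusted p = 0.071). For the difference between the lines edgeR called 0, with 6 at an unadjusted p under 0.05, and DESeq2 called CCND1 alone. ASCL2 rose in SW480 from 4.81 and 5.15 to 9.53 and 8.95 CPM (log2 0.89, SE 0.12, adjusted p = 0.0022, edgeR). In DLD-1 it went from 52.9 and 52.7 to 70 and 67.8 CPM (log2 0.39, unadjusted p = 9.2e-05, adjusted p = 0.14), with no overlap between hairpins, and the mean effect was called (log2 0.64, adjusted p = 4.4e-04). WNT9A (log2 0.66, adjusted p = 0.035) and TLE5 (log2 0.39, adjusted p = 0.031), a short Groucho-family protein, rose in SW480, and TLE5 was also called in the mean effect (log2 0.26, adjusted p = 0.046). WNT5A (log2 −0.39, adjusted p = 0.018), a ligand known mainly for β-catenin-independent signalling, and CCND1 (log2 −0.32, adjusted p = 0.03), the cyclin D1 gene, fell in SW480. In DLD-1, TLE5 was at 0.13, WNT5A at −0.11 and CCND1 at 0.07 on the log2 scale, none of them called, and WNT9A had 0 counts.

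The calls of WNT9A, TLE5, WNT5A and CCND1 in SW480 were each lost when SW480 shControl replicate 1, SW480 shControl replicate 2, SW480 shNAT10 replicate 1, DLD-1 shNAT10 replicate 1 or DLD-1 shNAT10 replicate 2 was left out, and that of TLE5 also without DLD-1 shControl replicate 1 (adjusted p from 0.051 to 0.39 over these). The mean effect of TLE5 was lost without each library except SW480 shNAT10 replicate 2. The rise of ASCL2 in SW480 stayed between 0.84 and 0.94 on the log2 scale with any library left out, with an adjusted p that reached 0.05 after rounding without SW480 shControl replicate 1 and was lower otherwise.

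Over the 8 libraries, the genes outside the list whose log2 CPM followed AXIN2 most closely were TSPYL4 (Pearson's r = 0.997), DNHD1 (r = 0.995) and RPS6KB1 (r = 0.994). The 8 libraries form 2 sets by line, so likeness to AXIN2 cannot be told apart from that split. RPS6KB1, for example, was at 39.3 to 47.6 CPM in SW480 and at 62.7 to 67.4 CPM in DLD-1.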

How the data were processed

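The authors deposited estimated counts per RefSeq transcript for all 8 libraries, and FPKM per transcript and library. RNA was selected with oligo(dT) and sequenced as single-end reads of 50 bases, and BGI processed the data. The submitters' processing notes name HISAT2 2.0.4, Bowtie2 2.2.5, RSEM 1.2.12 and hg38. For SW480 shNAT10 replicate 2, 18.6% of transcripts had no FPKM value.

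Counts were summed per gene, rounded, filtered (filterByExpr, minimum count 10, minimum total 15), scaled by TMM, and 1 model of the 4 groups was fitted in edgeR 4.0.16 (R 4.3.3), with Benjamini-Hochberg adjustment over 13619 genes. SE was derived from the log2 fold change and its F statistic. DESeq2 1.42.0 and limma 3.58.1 on log2(FPKM + 1) gave alternatives. In simulated data, 200 genes were changed in a single group and all other means were equal between groups. For the shControl line comparison (13388 genes), 84% of genes changed by 1 on the log2 scale were recovered, and 9.7% of calls were false. For knockdown in SW480 (13384 genes) the shares were 91% and 8.24%, and in DLD-1 (13381 genes) 86.7% and 7.14%. Of genes given a smaller change, 65%, 65% and 71% were recovered in these comparisons, in that order. Changes as small as those of the members after knockdown were not simulated. Far more genes were called between the real lines, so the false share does not carry over to that comparison.

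The members and lists were chosen with earlier results of these data known. Named genes are the members, NAT10, genes of the 6 lists called in a knockdown comparison, the 2 largest rises and falls per list among genes called in both line comparisons, and the 3 genes most like AXIN2. P-values rest on the spread between libraries of the same group, estimated over all groups together, and not on a spread between many lines.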

Additional observations from a re-analysis of the deposited data

How the results depend on the processing

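The line differences of the members kept their direction in every setting tried, and their calls changed only for ZNRF3 in the shNAT10 libraries, as given above. No member with an adjusted p was called in any knockdown comparison under any setting, and DESeq2 gave none to NOTUM, DKK1 and, outside the mean effect, SP5. Limma-trend on FPKM tested 4 members (NOTUM, DKK1, SP5 and APCDD1), because the values of SW480 shNAT10 replicate 2 stop part of the way, and so it called 0 members lower in SW480 in both line comparisons. With a pseudocount of 1 the NOTUM difference was 2.57 on the log2 scale in the shControl libraries and 2.84 in the shNAT10 libraries, since a pseudocount shrinks low values. The rule with a 2-fold limit, added after the values were seen, kept 1 member lower in each line comparison.

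The number of genes called moved far more than the members did, and the cause was not tested unless fewer genes or libraries entered. In the line comparisons it was 10046 and 10149, and 9122 to 10500 and 9262 to 10174 with a library left out. Limma-trend on FPKM tested 6305 genes, against the 13619 tested by edgeR, so its numbers of calls here and below have a smaller base. In the line comparisons it called 4447 and 4565 on log2(FPKM + 1) and 4436 and 4577 on log2(FPKM + 0.1). With the 2-fold limit edgeR called 3974 and 4048. In SW480 knockdown gave 229 calls, against 41 with no filter, 29 with the 2 groups alone, 28 and 25 on FPKM with pseudocounts of 1 and 0.1, and 17 to 2162 with a library left out. In DLD-1 it gave 2, against 1 with no filter, 38 with the 2 groups alone, 25 by DESeq2, 1 on log2(FPKM + 1) and 1 to 29 with a library left out. The mean effect had 139 calls, against 47 with no filter, 26 and 28 on FPKM and 25 (without DLD-1 shNAT10 replicate 1) to 1157 (without SW480 shNAT10 replicate 2) with a library left out. The difference between lines had 1 call, against 21 by DESeq2, 0 on FPKM and 0 to 346 (without SW480 shNAT10 replicate 2) with a library left out. The calls of WNT5A, WNT9A, TLE5 and CCND1 in SW480 were also lost with no filter (adjusted p = 0.061, 0.09, 0.1 and 0.084, edgeR) and with the 2 groups alone (0.12, 0.082, 0.14 and 0.13). That of CCND1 was lost on FPKM with either pseudocount (0.08 and 0.09, limma), that of WNT9A on log2(FPKM + 0.1) (0.16, limma), and the mean effect of TLE5 with upper-quartile normalization (0.051) and with no filter (0.14).

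A fit with the replicate number as a block gave 1654 calls in SW480, 65 in DLD-1, 832 for the mean effect and 209 for the difference, and it changed no call of a member. Libraries with the same number deviated together with correlations from −0.005 to 0.128 between pairs of groups, and with 2 numbers they share only a number.

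With a library left out, some knockdown values close to 0 changed sign, none of them called. On the log2 scale they ranged in SW480 from −0.08 to 0.05 for AXIN2, −0.17 to 0.02 for NKD1, −0.12 to 0.01 for ZNRF3, −0.19 to 0.10 for DKK1, −0.01 to 0.16 for TCF7 and −0.02 to 0.13 for APCDD1. In DLD-1 they ranged from −0.01 to 0.06 for AXIN2, −0.01 to 0.16 for NKD1, −0.52 to 0.01 for NOTUM, −0.02 to 0.42 for SP5, −0.08 to 0.05 for LEF1 and −0.04 to 0.38 for APCDD1. SP5 and NOTUM in SW480 kept their sign, at 0.16 to 0.36 and 0.15 to 0.36. Depth limits NOTUM most in DLD-1, at 10 to 16 counts per library, and DKK1, at 0.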

Other observations

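The deposited counts are divided among transcripts by an estimate, and the division differed for some members. These transcripts were picked after their values were seen, no test was made, and with reads of 50 bases the division itself is uncertain. Of the AXIN2 counts, the transcript NM_001363813.1 took 13.8% to 16.4% in the 4 SW480 libraries and 20.1% to 28.9% in the 4 DLD-1 libraries. Of the LEF1 counts, XM_005263046.3 took 15.9% to 25.1% in SW480 and 27.4% to 38.6% in DLD-1, which again did not overlap. For TCF7, NM_001366502.1 took 55.3% and 51.1% of the SW480 shControl counts, against 41.2% and 37.5% under shNAT10. In DLD-1 the same transcript took 44.9% and 66.6% in shControl and 30.7% and 24.7% in shNAT10, so its share was lower in both shNAT10 libraries of each line, while the gene totals of TCF7 were not called. The lines also did not overlap for transcripts of SP5 (NM_001003845.3, 83.6% to 86.8% in SW480 and 91.6% to 100% in DLD-1, and XM_005246542.4) and for a minor transcript of NKD1 (XM_011523400.2). The minor transcripts rest on few counts. XM_005246542.4 had at most 4.17 counts in a DLD-1 library. XM_011523400.2 had 2.06 to 29.77 counts in SW480 and 0 in DLD-1. All of NKD1 had only 312 to 348 counts in DLD-1, so a share as small could go unseen there.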
